A study of Mus with 6 samples.

Results

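The genes described here make cholesterol, sense and store it, release it from the lysosome and hydroxylate it. They are the 30 rows of the deposited table whose symbols are those of a list of sterol genes, out of 18887 rows in all, and all 30 symbols were found. The libraries are RiboTag immunoprecipitates of whole mouse brain that the labels assign to microglia: a tagged ribosomal protein is precipitated together with the mRNA being translated. The libraries fall into 2 groups, 2 libraries with genotype Ctr (titled MG_IP, called controls below) and 4 with genotype KO (titled IRKO_IP, called IRKO), and all 6 are ribosome-bound RNA. From the study's title on loss of insulin signalling in microglia, IRKO is read here as insulin receptor knockout. The Cre driver, the alleles, the age and the number of mice behind a library are not stated in the labels. Nothing says that the libraries of a group came from separate animals, and p-values then reflect sample-to-sample spread alone, possibly technical.

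Cholesterol is built from acetyl-CoA through mevalonate and farnesyl diphosphate to squalene, which is closed into lanosterol and then trimmed to cholesterol by a series of reductases, demethylases and isomerases. SREBP2, the product of Srebf2, switches these enzyme genes on when the endoplasmic reticulum runs short of sterol, SCAP carries it to the Golgi for activation, and the INSIG proteins hold it back when sterol is plentiful. In the adult brain, where plasma lipoproteins do not cross the blood-brain barrier, astrocytes are a main site of this synthesis, microglia take up lipid and clear it through the lysosome, and neurons remove cholesterol as 24-hydroxycholesterol.

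Values are normalized counts, the reads of a gene divided by 1 size factor per library, and a log2 change is the limma estimate of IRKO minus control on log2(value + 1), with its standard error. Recovered depth was 13858978 to 19010680 reads per library. Insr, the presumed target, stood at 565 and 532 in control replicates 1 and 2 and 357, 366, 290.5 and 339.9 in IRKO replicates 1 to 4, with no overlap of the groups (log2 change −0.70 ± 0.135, limma adjusted p = 0.00211). The content of the precipitates differed between the groups. All 24 homeostatic microglia markers were read in each group and all 24 rose, from sums of 98718 to 123638 normalized counts in the controls to sums of 260266 to 367904 in IRKO. All 20 astrocyte markers fell, from sums of 672594 to 857766 to sums of 53890.1 to 83810.1, and none of them was at 0 in either group. Erythroid markers, all 5 of which fell, summed to 75516 and 161622 in the controls and to 243 to 2132 in IRKO. Liver markers summed to 1173 and 16279 in control replicates 1 and 2 and to 59.4 to 127 in IRKO, with 5 of the 20 at 0 there. Control replicate 2 thus stood apart from replicate 1 in liver markers. It also did so in the sum of the choroid plexus and ependyma markers (69534 against 5109.9), most of which was Ttr (66778 against 3549). Other markers of that list differed less, such as Clic6 (426 against 305), or were alike, such as Rarres2 (688 against 676). In bulk precipitates such as these, fewer cells of a type and less RNA per cell cannot be told apart. Why the content differed between the groups was not tested.

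**Figure D1:**
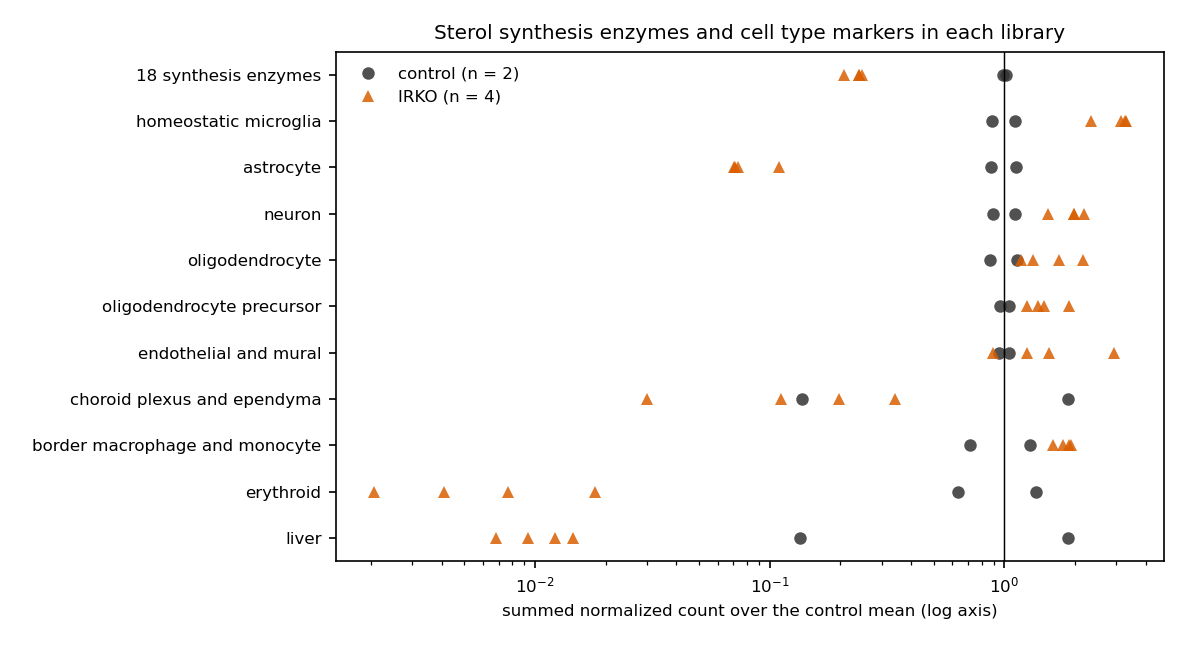
Summed normalized counts of the 18 cholesterol synthesis enzymes and of each cell type marker list, each divided by its mean over the 2 controls, on a log axis; circles are the controls and triangles the 4 IRKO libraries. The synthesis enzymes lie below 1 in every IRKO library, between the astrocyte markers, which are lower still, and the microglia markers, which are above 1.

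Of the 18 enzymes of cholesterol synthesis 17 fell in IRKO, Ebp being the exception, while Lipa of lysosomal release rose and neither of the 2 tested sterol hydroxylases passed the test. Of the 30 genes 29 passed the filter on low values (at least 10 in at least 2 libraries), and Ch25h did not. Every one of those 29 had at least 93.4 normalized counts in each library, so none was tested on the strength of 1 group alone. At a limma adjusted p under 0.05, 24 of the 29 fell, 1 rose and 4 did not pass, where 29.0% of all 14698 genes tested fell and 26.6% rose. At least 2-fold falls numbered 18 (14.0% of all genes) and at least 4-fold falls 13 (5.87% of all genes). For the same 24 genes every IRKO value lay below both controls, which held for 34.8% of all genes. The median log2 change of the 29 was −1.98, where that of all genes was 0.02. The 18 enzymes had a median log2 change of −2.15; of the other 11 tested genes 7 fell, and their median was −0.84. The difference between these sets was not tested.

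**Figure D2:**
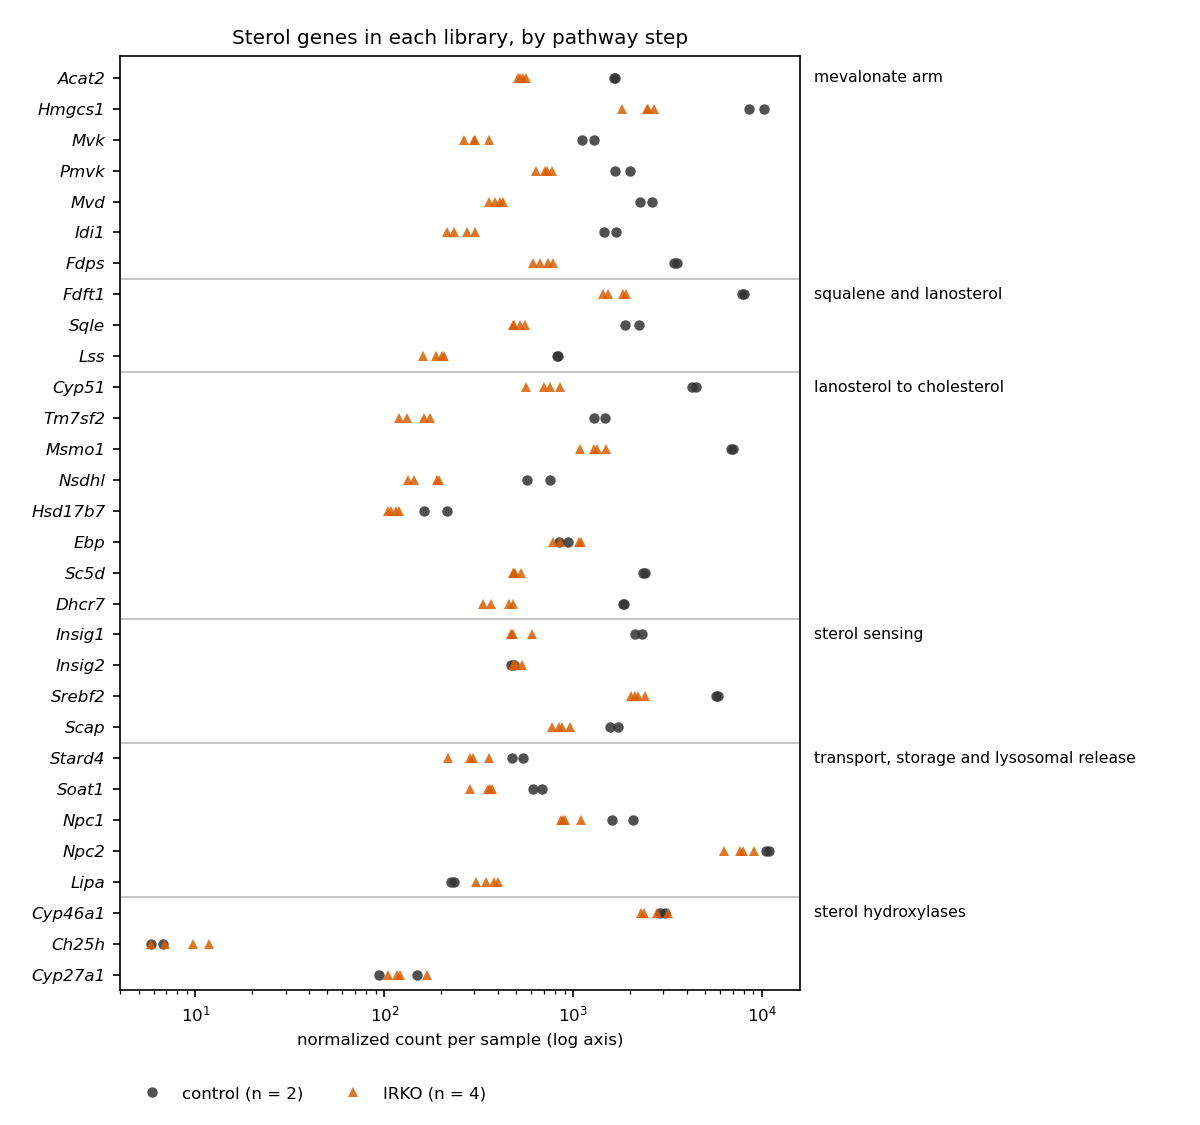
Normalized count of each of the 30 sterol genes in each library on a log axis, grouped by pathway step; circles are the 2 controls and triangles the 4 IRKO libraries. In 24 genes all triangles lie left of both circles, Lipa is the gene with all triangles to the right, and Ebp, Insig2, Ch25h and the other hydroxylases overlap.

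All 7 genes of the mevalonate arm fell, by 2.58- to 6.18-fold. Mvd (chromosome 8, 122433596 to 122443422 in GRCm38.p6), the decarboxylase that makes isopentenyl diphosphate, had normalized counts of 2253 and 2618 in control replicates 1 and 2 and 385, 409, 426 and 356 in IRKO replicates 1 to 4. The IRKO libraries clustered tightly, far below both controls (log2 change −2.62 ± 0.123, limma adjusted p = 5.28e-07). Idi1 (chromosome 13, 8885606 to 8892396), the isomerase of the next step, behaved alike, with 1695 and 1464 in control replicates 1 and 2 and 216, 301, 273 and 235 in IRKO replicates 1 to 4 and a log2 change of −2.63 ± 0.158. Hmgcs1 (chromosome 13, 119690351 to 119708260), the synthase that commits acetoacetyl-CoA to the pathway, dropped from 9375 ± 1185 (SD, n = 2) to 2357 ± 376 (SD, n = 4). Its IRKO replicate 4, at 1809.7, was the lowest, and its log2 change was −2.00 ± 0.167. Fdps, the farnesyl diphosphate synthase, fell 4.99-fold (3543 and 3434 in the controls and 616 to 778 in IRKO) and Mvk, the mevalonate kinase, 3.93-fold (1289 and 1118 in the controls and 265 to 358 in IRKO).

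The smallest falls of this arm were those of the kinase Pmvk, from 1830.4 ± 224 (SD, n = 2) to 708 ± 55.5 (SD, n = 4), a log2 change of −1.37 ± 0.124, and of Acat2. Acat2 (chromosome 17, 12943042 to 12960725), a cytosolic thiolase that makes acetoacetyl-CoA, had 1650.1 and 1656 in control replicates 1 and 2 and 566, 521, 539 and 509 in IRKO replicates 1 to 4. The controls nearly coincided and all IRKO values were far below them (log2 change −1.63 ± 0.106). Acat3, a close mouse copy next to it on chromosome 17, had 1054 and 647 in the controls and 55.5 to 68.0 in IRKO and a log2 change of −3.77 ± 0.215. Reads of such copies may be shared, so the separate values of the pair are uncertain.

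The 3 enzymes that lead from farnesyl diphosphate to lanosterol fell to a similar degree, by 4.02- to 4.75-fold. Fdft1 (chromosome 14, 63145150 to 63181687), squalene synthase, went from 7952 ± 129 (SD, n = 2) to 1676 ± 227 (SD, n = 4), with a log2 change of −2.26 ± 0.139 (limma adjusted p = 2.18e-06). Its gene span shares 774 bases with Ctsb, which encodes cathepsin B and whose log2 change of 0.10 ± 0.137 did not pass limma's test (adjusted p = 0.549). Sqle (chromosome 15, 59315092 to 59331193), the squalene epoxidase that is a later control point of the pathway, had 1875 and 2229.8 in control replicates 1 and 2 and 521, 486, 555 and 479 in IRKO replicates 1 to 4, a log2 change of −2.00 ± 0.122. Lss, the cyclase that closes lanosterol, had 820.0 and 827 in the controls and 160.5 to 206 in IRKO and changed by −2.12 ± 0.144. In these 3 genes no IRKO library came near either control.

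The steps from lanosterol to cholesterol held both the deepest fall of the list and its only synthesis enzyme that did not pass. Of these 8 genes 7 fell. Tm7sf2 (chromosome 19, 6062821 to 6067850), a sterol C14 reductase of the endoplasmic reticulum, fell 9.41-fold, with normalized counts of 1469 and 1289.7 in control replicates 1 and 2 and 119, 132, 161 and 174 in IRKO replicates 1 to 4. Its log2 change of −3.24 ± 0.177 (limma adjusted p = 1.16e-06) was the one estimate among the 29 inside the range of the astrocyte markers. That range was −5.13 to −2.69, with a median of −3.97, and its upper edge was set by Gjb6 alone (−2.69 ± 0.291). Idi1 (−2.63 ± 0.158), Cyp51 (−2.62 ± 0.159) and Mvd (−2.62 ± 0.123) lay just short of that edge. The intervals of Idi1, Cyp51 and Mvd reached into the range, with lower bounds of −2.98, −2.98 and −2.90. Tm7sf2 shares 9 bases with Vps51, which changed by −0.40 ± 0.119. Cyp51 (chromosome 5, 4080674 to 4104697), the lanosterol demethylase, fell 6.11-fold, from 4380.4 ± 161 (SD, n = 2) to 717 ± 121 (SD, n = 4). Msmo1, a C4 methyl oxidase, had 6826 and 6975 in the controls and 1082 to 1498 in IRKO (log2 change −2.41 ± 0.137).

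Sc5d, a desaturase, and Dhcr7, the enzyme that finishes one branch of the pathway, fell 4.80-fold and 4.50-fold, with log2 changes of −2.26 ± 0.106 and −2.18 ± 0.162. Nsdhl, a dehydrogenase of C4 demethylation on the X chromosome, had 754 and 566 in control replicates 1 and 2 and 134, 144, 190.4 and 194 in IRKO replicates 1 to 4. The controls were further apart here than in most of the enzymes, and the log2 change was −1.99 ± 0.202 (limma adjusted p = 5.09e-05). Hsd17b7, the ketoreductase of the same demethylation, fell least, with 162 and 216 in control replicates 1 and 2 and 119.9, 104, 109 and 116 in IRKO replicates 1 to 4. Its log2 change of −0.73 ± 0.178 passed limma's test (adjusted p = 0.00696) but not without control replicate 2, the library with the higher liver markers (−0.53, limma adjusted p = 0.0825); the part of liver RNA in the difference was not tested.

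Ebp (chromosome X, 8185329 to 8193512), the sterol isomerase that also binds emopamil, did not pass the test. Its normalized counts were 840.2 and 935 in control replicates 1 and 2 and 1105, 1071, 781 and 849 in IRKO replicates 1 to 4. IRKO replicates 1 and 2 lay above both controls, replicate 3 lay below both, and the groups overlapped. The log2 change of 0.09 ± 0.16 had a 95% interval of −0.28 to 0.45 (limma adjusted p = 0.667), which leaves out a fall of the size seen in the 16 enzymes that fell at least 2-fold.

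**Figure D3:**
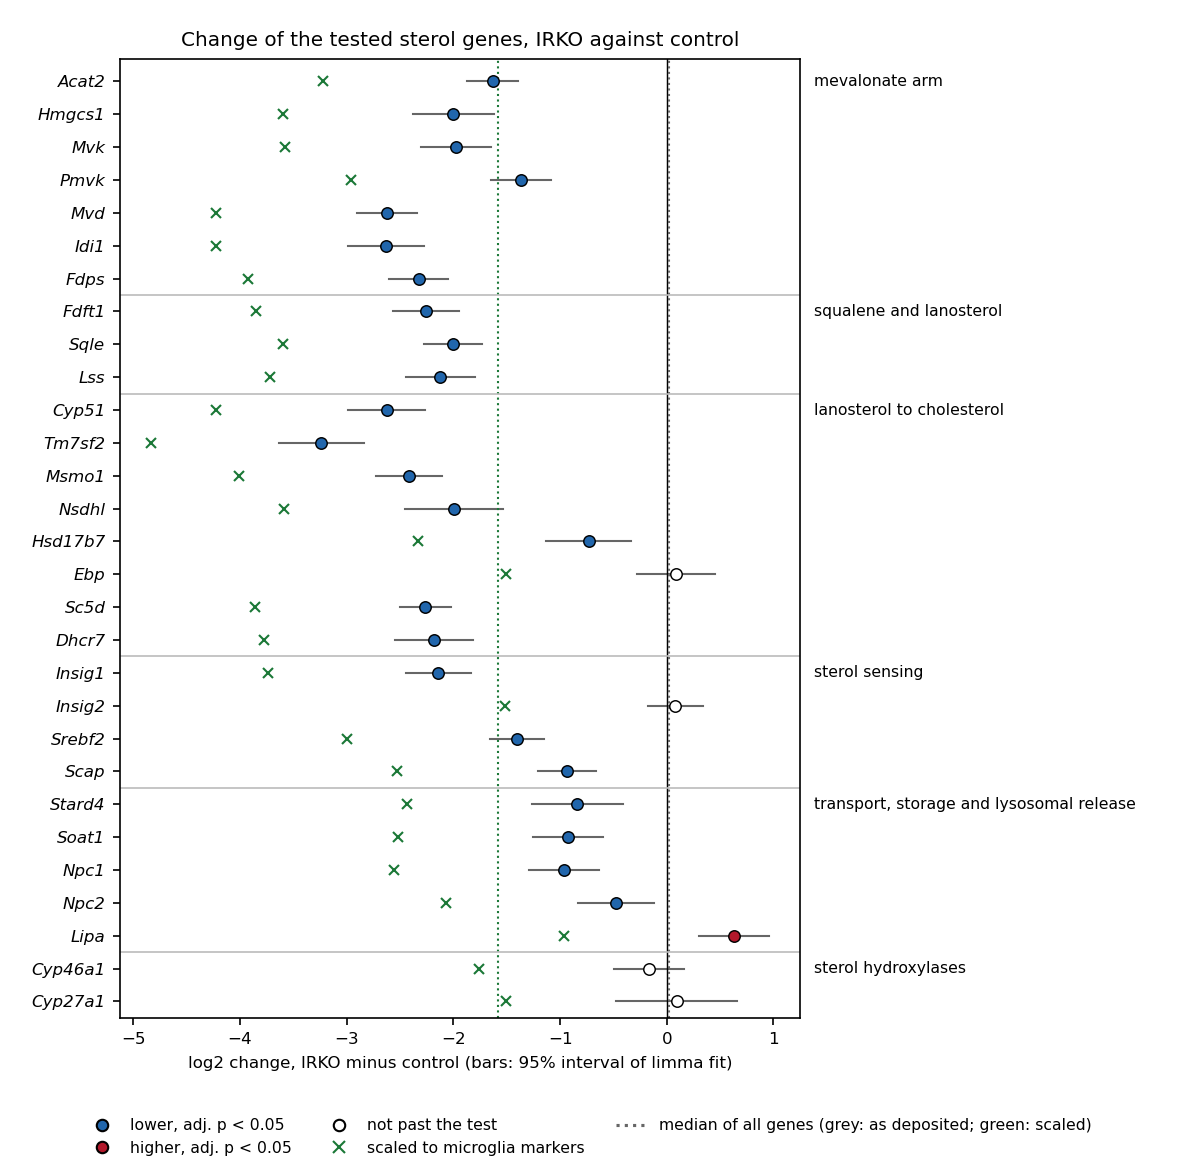
Log2 change of the 29 tested sterol genes, IRKO minus control; filled blue circles fell, the red circle rose and open circles did not pass limma's test, bars are 95% intervals, and green crosses show the same change with libraries scaled to the mean of the microglia markers. Dotted lines mark the median of all genes, 0.02 as deposited and −1.58 after that scaling; the synthesis enzymes other than Ebp and Hsd17b7 lie between −3.24 and −1.37 as deposited.

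Among the sensors, the members of the INSIG pair parted. Insig1 (chromosome 5, 28071412 to 28078662), which is itself a target of SREBP and retains SCAP in the endoplasmic reticulum, had 2134 and 2304 in control replicates 1 and 2 and 468, 472, 602 and 478 in IRKO replicates 1 to 4. It fell 4.39-fold (log2 change −2.14 ± 0.134, limma adjusted p = 2.51e-06), as deep as the enzymes. Insig2 (chromosome 1, 121304353 to 121332662), its paralog, which is less tied to sterol supply, had 466 and 483 in control replicates 1 and 2 and 497, 537, 495 and 477 in IRKO replicates 1 to 4, and these groups overlapped. Its log2 change was 0.08 ± 0.114, with a 95% interval of −0.18 to 0.34 (limma adjusted p = 0.576). Srebf2 (chromosome 15, 82147269 to 82205379), the transcription factor gene, fell from 5769.7 ± 125 (SD, n = 2) to 2185 ± 164 (SD, n = 4), a log2 change of −1.40 ± 0.112. Scap, its escort, fell less, with 1719.8 and 1563 in the controls and 773 to 957 in IRKO (−0.93 ± 0.12).

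The 4 genes of transport, storage and lysosomal export other than Lipa fell by less than 2-fold. Stard4, a carrier of cholesterol between membranes, had 475 and 543 in the controls and 217 to 358 in IRKO and a log2 change of −0.84 ± 0.19 (limma adjusted p = 0.00495). Soat1, which esterifies cholesterol for storage in lipid droplets, fell from 649 ± 52.7 (SD, n = 2) to 343 ± 40.7 (SD, n = 4), a change of −0.93 ± 0.146. Npc1, the lysosomal membrane protein that exports cholesterol, had 2065 and 1597 in control replicates 1 and 2 and 884, 905, 859 and 1096 in IRKO replicates 1 to 4 and changed by −0.96 ± 0.146. Its span shares 8982 bases with Rmc1, which also fell (−1.24 ± 0.182), and the strand setting of the counting is not stated in the labels. Npc2, its soluble partner in the lysosomal lumen, had 10493 and 10893 in control replicates 1 and 2 and 9114, 7961, 6303 and 7645 in IRKO replicates 1 to 4. All 4 IRKO values lay below both controls, yet the log2 change of −0.48 ± 0.157 was near the threshold (limma adjusted p = 0.0284). The call was lost without control replicate 1 (adjusted p = 0.0986), control replicate 2 (0.129) or IRKO replicate 2 (0.0516), with a replicate block (0.110) and under quantile normalization (0.543).

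Lipa was the only one of the 29 that rose. It encodes lysosomal acid lipase, which frees cholesterol and fatty acids from the lipid that a cell takes up, and lies at chromosome 19, 34492316 to 34527474. Normalized counts were 233 and 227 in control replicates 1 and 2 and 305, 379, 347 and 400.3 in IRKO replicates 1 to 4, so each IRKO library was above both controls, as in 32.8% of all genes (log2 change 0.63 ± 0.146, limma adjusted p = 0.00548). The rise of 1.56-fold was smaller than that of each of the 24 microglia markers, whose log2 changes ran from 0.93 to 2.10. With the libraries scaled to those markers Lipa changed sign, to −0.97 (limma adjusted p = 0.000847). In that scaling 84.0% of all genes were lower and their median was −1.58, below the value of Lipa. The part of microglial content in the rise was not tested.

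Neither tested hydroxylase passed. Cyp46a1 (chromosome 12, 108334268 to 108362234), the cholesterol 24-hydroxylase of neurons, had 3056 and 2865 in control replicates 1 and 2 and 2292, 3175, 2785 and 2377 in IRKO replicates 1 to 4. Its groups overlapped and its log2 change was −0.17 ± 0.147 with a 95% interval of −0.50 to 0.16 (limma adjusted p = 0.355). In the same libraries 16 of 20 neuron markers rose and none fell, where 26.6% of all genes tested rose and 29.0% fell. The neuron marker sums were 79308 and 98546 in the controls against 136559 to 193642 in IRKO. The part of neuronal content in the values of Cyp46a1 was not tested. Cyp27a1, the mitochondrial sterol 27-hydroxylase found in macrophages and liver, had 93.4 and 148 in control replicates 1 and 2 and 121, 116, 105 and 168 in IRKO replicates 1 to 4. The controls of Cyp27a1 spanned most of the IRKO range, and its log2 change was 0.09 ± 0.251, with a 95% interval of −0.47 to 0.66. Ch25h, the 25-hydroxylase that macrophages induce in response to interferon and that lies beside Lipa on chromosome 19, was close to the limit of the reads, at 6.75 and 5.81 in control replicates 1 and 2 and 6.93, 11.8, 5.83 and 9.74 in IRKO replicates 1 to 4, and was not tested.

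Replicates of a group were close for the synthesis enzymes. Across the 18 the value of control replicate 2 was 0.75 to 1.33 times that of replicate 1, with a median of 1.01. Liver markers differed 13.9-fold between these libraries, and the part of liver RNA in the enzyme values was not tested. The summed normalized count of the 18 enzymes was 50208 and 51818 in the controls and 12206, 12293, 12637 and 10586 in IRKO replicates 1 to 4, a ratio of 4.28 between the group means. Within IRKO the highest value was 1.11 to 1.52 times the lowest. IRKO replicate 1 was the lowest in 8 of the enzymes, replicate 4 in another 8, and replicate 3 was the highest in 8. Without control replicate 2, 22 of the sterol genes fell and 1 rose.

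Ratios between sterol genes within a library do not depend on how libraries are scaled to each other, and 5 such ratios were formed after the single values had been seen. The ratio of Insig1 to Insig2 was 4.58 and 4.77 in the controls and 0.940, 0.879, 1.22 and 1.00 in IRKO replicates 1 to 4, a log2 difference of −2.22 ± 0.106 (SE). Tm7sf2 was set against Lbr, the nuclear envelope protein with the same C14 reductase activity, which rose from 85.1 ± 5.32 (SD, n = 2) to 160.4 ± 10.6 (SD, n = 4). Their ratio went from 16.5 and 15.9 in the controls to between 0.682 and 1.10 in IRKO, a log2 difference of −4.16 ± 0.169. The other 17 synthesis enzymes summed to 51.7 and 47.8 times Ebp in the controls and to 8.76 to 13.5 times in IRKO. On the lysosomal side the ratio of Npc1 to Lipa was 8.87 and 7.05 in the controls and 2.39 to 2.90 in IRKO. For cholesterol esters, Soat1 over Nceh1, a hydrolase of stored esters in macrophages, was 1.08 and 0.977 in the controls and 0.205 to 0.361 in IRKO. In none of the 5 ratios did the groups overlap. The ratios were chosen with the values known, each setting genes that fell over a gene that rose or did not pass limma's test. Separation of the groups was thus favoured by the choice, and the ratios are given as a description only. How often other gene pairs separate the groups was not tested.

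**Figure D4:**
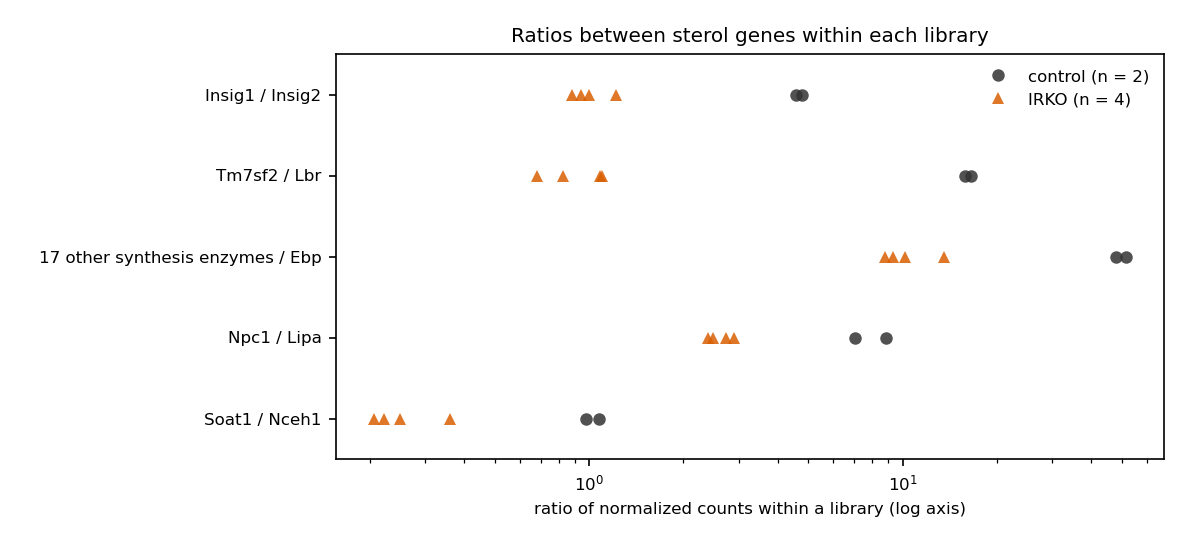
Ratio of normalized counts between sterol genes within each library, on a log axis; circles are the 2 controls and triangles the 4 IRKO libraries. In each of the 5 ratios the IRKO libraries lie left of both controls, furthest for Tm7sf2 over Lbr.

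Outside these 30 genes, 54 others of sterol metabolism were examined, 53 of which were tested. They were mixed, with 21 lower, 11 higher and 21 not passing, and a median log2 change of −0.11, where 29.0% of all genes tested were lower and 26.6% higher. The counts of the smaller groups below stand against the same shares, and none was tested against them. Scaling to the microglia markers lowers every gene alike, with a median of −1.58 over all genes, 84.0% of them lower and 0.225% higher. By that shift each of the 11 that rose lay below 0, though above that median, and none passed upwards. In the group of synthesis, its branches and partners, Acat1, the mitochondrial thiolase (−1.89 ± 0.11), and Por, the electron donor of Cyp51 and Sqle (−1.54 ± 0.123), fell. In that group 7 of 15 fell and 2 rose, Lbr and Nus1, a subunit of dolichol synthesis (0.52 ± 0.133, not passing without control replicate 2, limma adjusted p = 0.0626). Of 10 genes of sterol sensing and turnover 5 fell and 3 rose. Srebf1, the sister factor that drives fatty acid synthesis, had 5210.0 and 4517 in control replicates 1 and 2 and 490.3, 488, 461 and 647 in IRKO replicates 1 to 4, a log2 change of −3.23 ± 0.152. Tmem97, a sterol-responsive membrane protein, fell by less (−0.87 ± 0.166). Mylip, a ubiquitin ligase that LXR induces, rose (0.94 ± 0.203), as did Mbtps2, the protease that releases SREBP (0.77 ± 0.198), whose call was lost without control replicate 1 (limma adjusted p = 0.0987) and with a replicate block (0.0548).

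For uptake, Scarb2, a lysosomal membrane receptor, fell (−0.48 ± 0.13), a call lost in 2 of 18 alternatives, by quantile normalization (limma adjusted p = 0.338) and by leaving out control replicate 1 (0.121). In efflux Abcg1, a sterol exporter, rose 2.71-fold (362 and 398 in the controls and 906 to 1095 in IRKO), while Nr1h3, the oxysterol receptor LXR alpha, fell (−1.70 ± 0.245) and so did Nr1h2, LXR beta (−0.48 ± 0.162), a call lost in 7 of 18 alternatives, among them without control replicate 1 (limma adjusted p = 0.190) or 2 (0.0550). Among 12 genes of transfer and esters 3 fell and 3 rose. Lcat, which esterifies cholesterol on secreted lipoproteins, dropped from 4674 ± 115 (SD, n = 2) to 118 ± 38.9 (SD, n = 4), the deepest fall of the 53. Nceh1 rose 2.15-fold and Osbpl8, an oxysterol-binding protein, 1.62-fold, while Osbpl2 (−0.45 ± 0.121) and Stard5 (−0.51 ± 0.178) fell, neither of them passing without control replicate 1 (limma adjusted p = 0.0736 and 0.144), and their calls were lost in 3 and 9 of the 18 alternatives. In oxysterol clearance Cyp7b1, which hydroxylates 25- and 27-hydroxycholesterol, fell 8.99-fold and Hsd3b7, which acts after it, 2.71-fold, whereas Sult2b1, a sterol sulfotransferase, rose 2.75-fold from 63.8 ± 4.29 (SD, n = 2).

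**Figure D5:**
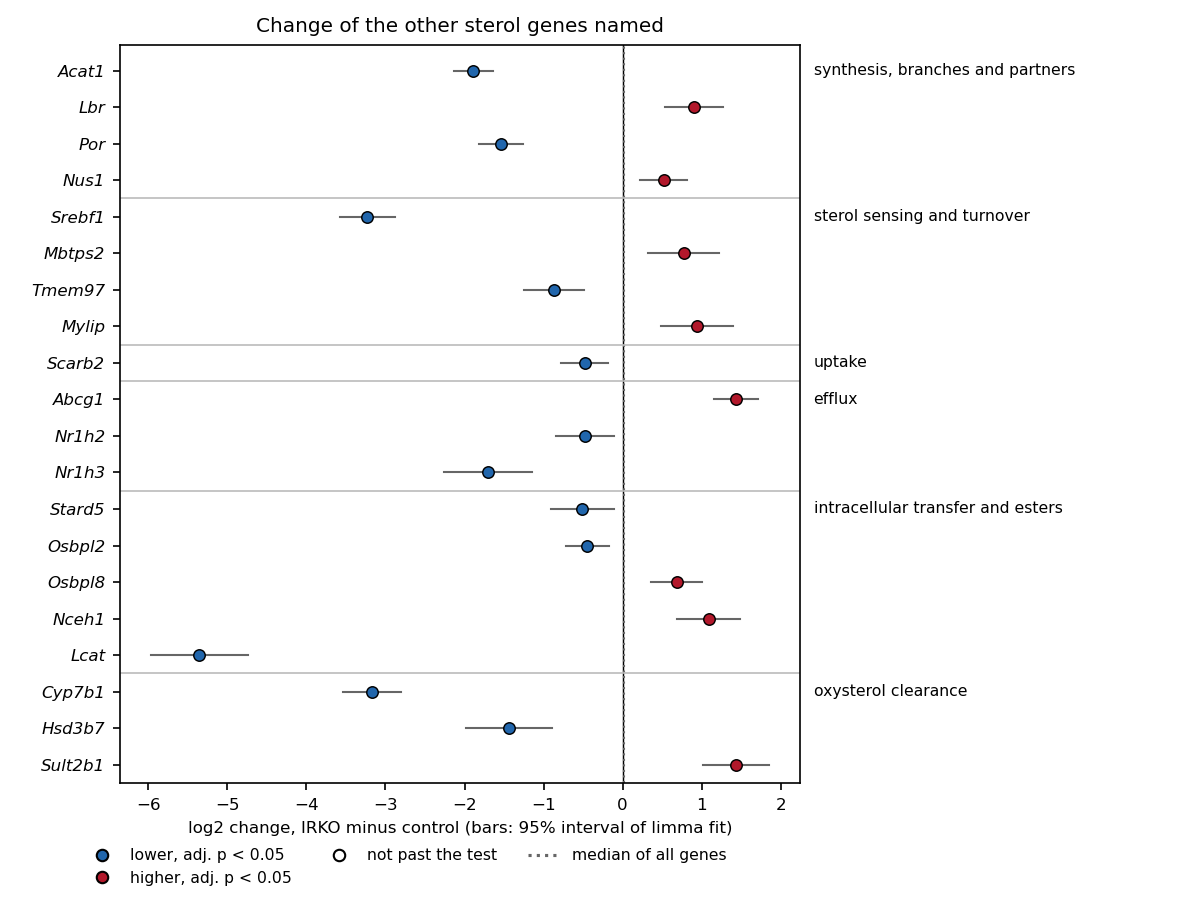
Log2 change of the other genes of sterol metabolism named here, IRKO minus control, by group; blue circles fell, red circles rose, and bars are 95% intervals. Lcat (−5.35), Srebf1 (−3.23) and Cyp7b1 (−3.16) lie furthest to the left, and Abcg1 and Sult2b1 furthest to the right of those that rose.

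Against the microglia markers Ebp, Insig2, Lipa and Cyp27a1 changed sign, from above 0 as deposited to below 0, and the other tested sterol genes lay below 0 in both scalings. When each library was scaled to an equal mean of the 24 microglia markers, the median of all genes moved to −1.58 with 84.0% of them lower and 0.225% higher, and all 29 tested sterol genes fell, with a median of −3.57. That scaling shifts every gene alike, so the differences between genes stay as deposited. Ebp (−1.51), Insig2 (−1.52) and Cyp27a1 (−1.50) sat near the median of all genes there, as they did in the deposited scaling. Astrocyte markers were at a median of −3.97 as deposited and −5.57 in that scaling, below the synthesis enzymes in both. Choroid plexus and ependyma markers had a median of −2.05 as deposited, near the −2.15 of the synthesis enzymes. Oligodendrocyte markers had a median of 0.86 as deposited, above 0. The part of these cell types in the falls of the sterol genes was not tested.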

How the data were processed

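RiboTag precipitates of 6 libraries were analysed, 2 control and 4 IRKO, grouped by their titles. Bowtie2 and build GRCm38.p6 were used, per the submitters' processing notes; how reads were counted and normalized, and with which annotation and strand setting, is not given in the sources used here. Deposited by the authors is a signal for each gene, its reads divided by 1 size factor per library: within 0.05 reads, 100% of values were whole multiples of 1 step per library. The step of IRKO replicate 1 (0.991) lies too near 1 for a formal step test, so edgeR was also run without that library.

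Genes with at least 10 in at least 2 libraries were fitted on log2(value + 1), which understates changes of low genes, with limma 3.58.1 in R 4.3.3 (mean-variance trend, IRKO minus control, two-sided). P-values were Benjamini-Hochberg adjusted over all 14698 genes, with a threshold of 0.05. The fit was tested on simulated data with few changed genes and the same dispersion for every gene. That setting is simpler than these libraries and does not cover their differences in content. Alternatives were pseudocounts of 0.5 and 5, no filter or a filter at 50, TMM, quantile and microglia-marker scaling, no trend, a replicate block, leaving out each library, edgeR 4.0.16 and DESeq2 1.42.0 on recovered reads. All 30 members were named; of the other sterol genes, those past the threshold with the smallest p were named, at most 3 per group in the more frequent direction and 2 in the opposite one; some of these are not reported here. The members and lists were chosen with earlier results of these data known. Libraries of a group differed by more than sampling noise (chi-square per degree of freedom 17.5 to 38.6), so none was counted as a duplicate. Coordinates are those of RefSeq genes on GRCm38.p6, where 18542 of 18887 symbols matched. No gene lengths per transcript or sequences were used here. The ratios between genes were therefore not corrected for length, and only their change between groups is read. The planned search of promoters was not run.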

Additional observations from a re-analysis of the deposited data

Results flagged for a closer look

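Of 50 sterol genes examined across the 4 IRKO libraries, 3 had a library far from the other 3, where chance gives about 1 in 20. Insig1 stood at 602 in IRKO replicate 3, with the next value at 478. Srebf1 stood at 647 in IRKO replicate 4, with the next at 490.3. Nus1 was low in IRKO replicate 4, at 1237 where the next value was 1570.1. In each of these genes every IRKO value still lay on the same side of both controls. Among all genes tested, every IRKO value lay below both controls in 34.8% and above both in 32.8%.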

How the results depend on the processing

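In all alternatives but the scaling to microglia markers, 22 to 24 of the sterol genes fell and 1 rose, Hsd17b7 and Npc2 being those that lost calls. Scaling to microglia markers gave 29 lower and 0 higher, 33 genes higher and 12344 lower over the whole table, 47 lower and 0 higher among the other sterol genes, and 2 lower hydroxylases. It turned Ebp (−1.51), Insig2 (−1.52), Lipa (−0.97), Cyp27a1 (−1.50), Abcg1 (−0.16), Lbr (−0.69), Mbtps2 (−0.82), Mylip (−0.66), Nceh1 (−0.51), Nus1 (−1.08), Osbpl8 (−0.91) and Sult2b1 (−0.16) below 0, as its construction shifts all genes alike. The members' median was −1.98 and moved to −3.57 under that scaling, −1.69 under quantile normalization, −1.80 with no filter, −1.87 with edgeR without IRKO replicate 1 and −1.87 with a replicate block. It ranged from −2.03 to −1.79 with each library left out. Cyp27a1 changed sign without control replicate 1 (−0.24) and without IRKO replicate 4 (−0.047), standing at 0.42 without control replicate 2, and Cyp46a1 under quantile normalization (0.14). None of these was past the threshold, and the cause was not tested.

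Replicate numbers 1 and 2 are shared by both groups, and whether they pair samples is not known. The deviations of same-numbered libraries from their group means correlated at −0.08 and 0.08. With 2 controls, the deviations of the controls mirror each other, so these values are not separate checks and cannot settle pairing. With the replicate block 23 members fell and 1 rose. With 2 controls, each control weighs heavily in its group's mean, and low genes such as Ch25h are limited by depth.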
